A study of Mus musculus with 12 samples.

Results

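Lcn2, Saa3, Camp, Lyz2, Slpi, Hp and Ptx3 encode proteins that leukocytes secrete against microbes or that rise in blood during infection. The 7 genes were taken by the gene name printed in the array files, with the brightest probe standing for each gene, and they are 7 of 20491 genes tested. Their transcripts were measured in mouse bone marrow-derived macrophages, which are cells grown from marrow in medium rich in a macrophage growth factor. There were 12 single-colour oligonucleotide arrays, 3 per group. Recovered cells were given lipopolysaccharide (LPS, a component of the outer wall of Gram-negative bacteria) for 8 h, rested for 88 h per the sample descriptions (the protocol gives 2 to 4 days) and given LPS again for 4 h. Tolerant cells were rested for 16 h between the same exposures. Acute cells had LPS once, for 4 h, and untreated cells had none. The mice were C57BL/6 females, 6 to 8 weeks old, and the marrow had been grown for 7 days with medium from L929 cells. The 3 arrays of a group came from 3 independent experiments, and whether each experiment used separate animals is not stated. The labels number the arrays of each group, and arrays of equal number are called an experiment below. That they belong together is assumed, since the labels do not state it and most arrays of equal number also shared a slide. Untreated cells kept for the longer time and cells given the first LPS without the second were not analysed here, so a transcript left over from the first exposure and one made after the second cannot be told apart.

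The proteins act outside the cell. Several of them starve, cut or coat microbes: lipocalin 2 binds the siderophores with which bacteria collect iron, cathelicidin and lysozyme damage bacterial walls and membranes, and pentraxin 3 tags microbes for complement and phagocytes. Serum amyloid A3 and haptoglobin belong to the acute-phase proteins, and secretory leukocyte peptidase inhibitor restrains the proteases that neutrophils release and also dampens LPS signalling in macrophages. A first LPS exposure is known to leave macrophages tolerant, a state in which many inflammatory genes respond less to a second exposure while others, antimicrobial genes among them, respond as much or more.

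Each gene was read by a 60-base probe, placed on mm9 by the array files at chr2:32240199-32240258 for Lcn2 (minus strand), chr7:53970389-53970448 for Saa3 (minus strand) and chr9:109749911-109749970 for Camp (minus strand). Those of Lyz2, Slpi, Hp and Ptx3 lie at chr10:116719175-116719234 (minus strand), chr2:164179849-164179908 (minus strand), chr8:112099045-112099104 (minus strand) and chr3:66029245-66029304 (plus strand). Which exon or untranslated region a probe lies in was not analysed here. Saa3 and Lyz2 have close paralogs (Saa1 and Saa2, and Lyz1), so their probe sequences are shown, and how much paralog RNA binds them was not tested.
Saa3 probe: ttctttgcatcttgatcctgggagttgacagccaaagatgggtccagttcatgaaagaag
Lyz2 probe: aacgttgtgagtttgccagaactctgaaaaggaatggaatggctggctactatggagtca

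The 250 bases before the start of transcription are shown for 4 genes that the results below turn on, chosen with their values known (RefSeq, GRCm38.p6). They lie at chr2:32387740-32387989 for Lcn2, chr7:46715677-46715926 for Saa3 and chr2:164356508-164356757 for Slpi, all on the minus strand, and at chr3:66219637-66219886 on the plus strand for Ptx3. Of the 7 genes 6 had an entry. Capitals mark matches on either strand to an NF-kB form, GGGNNNNNCC, or a C/EBP form, TTNNGNAA. Both names stand for transcription factor families that act on many inflammatory genes.
Lcn2 promoter: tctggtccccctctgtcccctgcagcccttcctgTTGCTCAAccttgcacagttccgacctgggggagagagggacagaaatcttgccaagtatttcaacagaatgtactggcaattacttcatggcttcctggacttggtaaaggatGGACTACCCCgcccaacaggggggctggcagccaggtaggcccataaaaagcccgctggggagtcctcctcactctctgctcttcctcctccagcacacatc
Saa3 promoter: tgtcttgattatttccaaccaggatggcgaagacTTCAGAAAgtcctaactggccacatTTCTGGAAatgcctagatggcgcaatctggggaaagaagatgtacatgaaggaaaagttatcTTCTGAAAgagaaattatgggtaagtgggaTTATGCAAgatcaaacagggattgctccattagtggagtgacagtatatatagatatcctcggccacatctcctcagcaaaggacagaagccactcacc
Slpi promoter: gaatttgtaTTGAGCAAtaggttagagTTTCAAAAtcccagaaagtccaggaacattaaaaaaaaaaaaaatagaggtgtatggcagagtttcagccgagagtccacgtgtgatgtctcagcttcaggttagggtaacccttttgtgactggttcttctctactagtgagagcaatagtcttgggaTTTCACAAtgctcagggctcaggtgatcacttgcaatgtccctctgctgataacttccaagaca
Ptx3 promoter: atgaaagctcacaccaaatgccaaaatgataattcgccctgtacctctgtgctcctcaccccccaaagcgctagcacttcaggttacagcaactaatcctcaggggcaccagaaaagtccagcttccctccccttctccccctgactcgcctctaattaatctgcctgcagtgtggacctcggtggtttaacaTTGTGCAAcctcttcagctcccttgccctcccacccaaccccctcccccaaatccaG

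The Saa3 stretch holds 4 matches to the C/EBP form and no match to the NF-kB form, and the Slpi stretch holds 3 and none. Lcn2 has 1 match to each, with the NF-kB form at -102 to -93 from the start. In Ptx3 the last capital opens an NF-kB match that runs past the start, and 1 match to the C/EBP form lies upstream. Searched in 250 bases before and 50 after the start, Camp had the NF-kB form only (36 to 46 bases after the start) and Lyz2 the C/EBP form only (1 match). A STAT form, TTCNNNGAA, was in none of the 6. Of 32851 mouse promoters of that length 50.8% hold the NF-kB form, 40.7% the C/EBP form and 8.3% the STAT form, so the matches of the first 2 kinds are common, and a match is a description and not a site.

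Levels are log2 processed intensities after each array's 75th percentile was set to the same value, and they are compared between groups for 1 probe at a time. Changes are log2 differences with their standard errors from a single limma fit of all 12 arrays, and calls were made at an adjusted p (Benjamini-Hochberg, over all genes tested) under 0.05. Over all genes the median change lay between -0.05 and 0.09 in the 6 comparisons. Lcn2, Saa3, Camp, Lyz2, Slpi and Hp were well above background on all 12 arrays, and Ptx3 on the 9 arrays of LPS-treated cells. In whole-culture RNA, fewer cells that make a transcript and less of it per cell cannot be told apart.

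All 7 macrophage markers other than Lyz2 were above background on all 12 arrays, with summed processed intensity of 649200 to 782200 in recovered, 527700 to 651800 in tolerant, 504900 to 608000 in acute and 473100 to 481700 in untreated cells. Of the 9 neutrophil markers on the array other than Camp, Csf3r, Elane and Mmp8 were above background on all 12 arrays, while Ngp, Ltf, Prtn3 and Cxcr2 were on none. Their sum was 45240 to 60810 in recovered, 45890 to 60720 in tolerant, 42760 to 78090 in acute and 36700 to 78140 in untreated cells, so the ranges overlapped between all groups. Csf3r alone made 80.5% to 91.8% of that sum. Mmp8, a granule collagenase, averaged 9.55 in recovered, 11.39 in tolerant, 10.85 in acute and 10.79 in untreated cells on the log2 scale, with recovered minus tolerant at -1.84 ± 0.64 (adjusted p = 0.0636). None of 4 hepatocyte markers was above background on any array. Lymphocyte markers (4 of 5 above background on some array) summed to 1657 to 2190, 1778 to 2066, 2205 to 2579 and 2715 to 3884 in recovered, tolerant, acute and untreated cells. The lower sums in LPS-treated cells lay in Cd79b, which averaged 6.66, 9.07, 9.43 and 10.52 (log2) in that order. Cd3e averaged 10.72, 10.35, 10.63 and 10.49. Stromal markers (4 of 5) summed to 456.9 to 723.5, 449.7 to 574.4, 280.4 to 452.6 and 121.3 to 176.3, and dendritic cell markers (3 of 5) to 1267 to 2065, 634.6 to 850.9, 961.4 to 1960 and 42.57 to 82.95 in the same order of groups. The rise of the last 2 sums in LPS-treated cells lay largely in 1 gene each. Pdgfrb averaged 8.42, 8.24, 7.05 and 2.14 (log2) and Zbtb46 10.56, 9.37, 10.53 and 5.22 in recovered, tolerant, acute and untreated cells. Without Pdgfrb the stromal sum was 186 to 289.3, 149.8 to 215.8, 175.2 to 309.5 and 116.8 to 173.1, and without Zbtb46 the dendritic sum was 41.15 to 59.06, 56.82 to 82.85, 35.66 to 57.14 and 16.17 to 38.35 in the same order. Col1a1, Dpp4 and Xcr1 were above background on no array. The part of these markers in the results was not tested.

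**Figure D1:**
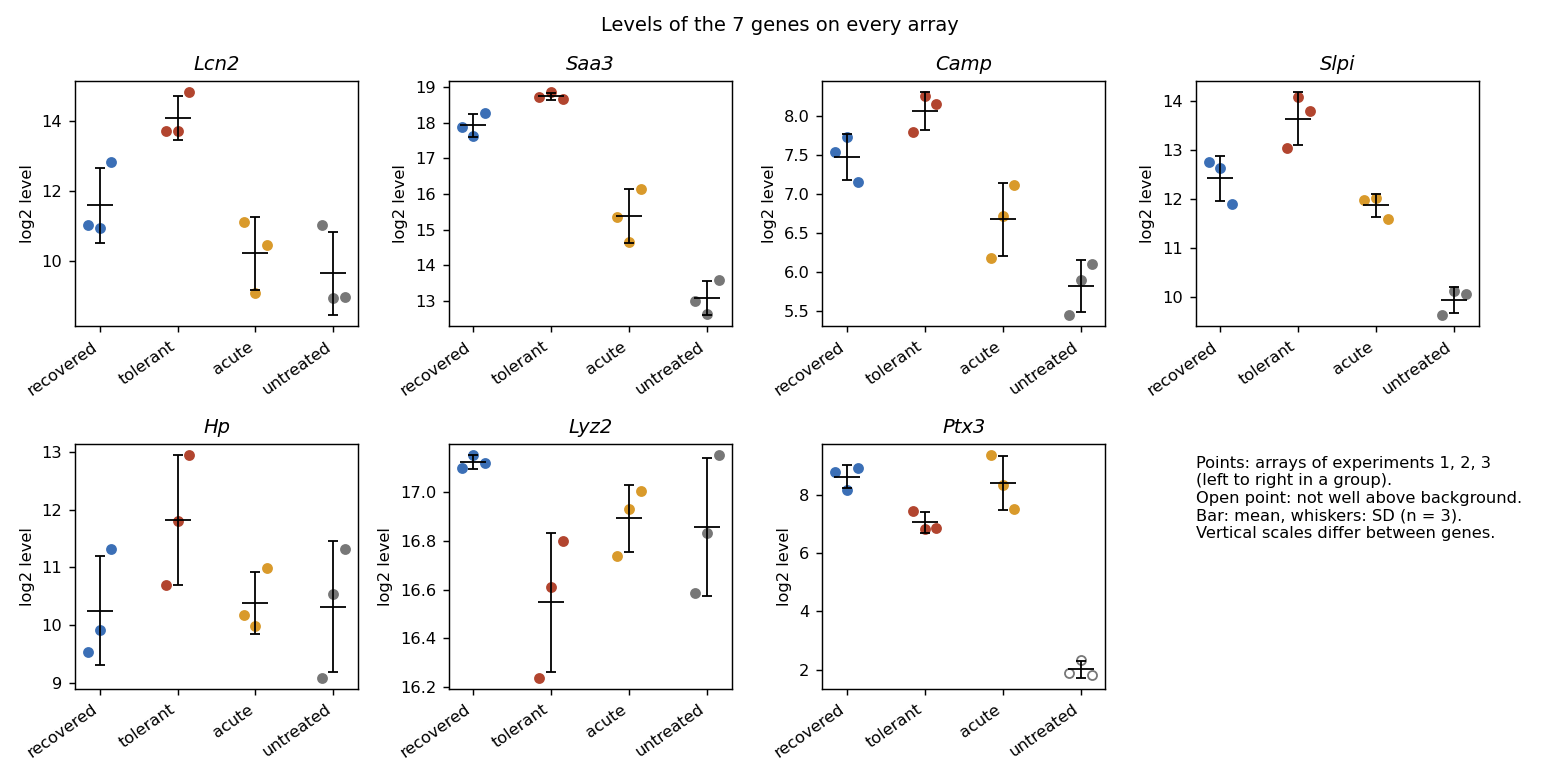
Log2 level of each gene on every array, by group. Points are arrays of experiments 1, 2 and 3 from left to right, the bar is the mean with its SD (n = 3), and open points are not well above background. Lcn2, Saa3, Camp, Slpi and Hp have their highest group mean in tolerant cells, Lyz2 and Ptx3 in recovered cells, and the untreated Ptx3 points lie far below the rest.

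Saa3, an acute-phase apolipoprotein that is made outside the liver as well, stood at its highest in cells that had met LPS before. Its levels were 17.89, 17.63 and 18.28 in recovered cells, 18.73, 18.86 and 18.67 in tolerant cells, 15.36, 14.64 and 16.15 in acute cells and 13.00, 12.64 and 13.59 in untreated cells. The arrays of the 4 groups did not overlap, and the order was tolerant, recovered, acute, untreated. A first LPS exposure raised Saa3 by 2.31 ± 0.35 (adjusted p = 0.000428), which is 4.95-fold. Against untreated cells it rose by 5.68 ± 0.35 in tolerant cells (51.1-fold, adjusted p = 1.13e-06) and by 4.86 ± 0.35 in recovered cells (29.0-fold, adjusted p = 1.29e-06).

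Set against acute cells, which had the same final 4 h of LPS, Saa3 was higher by 3.37 ± 0.35 in tolerant cells (10.3-fold, adjusted p = 0.000113) and by 2.55 ± 0.35 in recovered cells (5.85-fold, adjusted p = 0.0101). It was the only one of the 7 genes called between recovered and acute cells, a comparison in which 1.46% of all genes were called higher and 2.04% in either direction. The difference between recovered and tolerant cells was -0.82 ± 0.35, with an adjusted p of 0.118. With experiment number as a block in the fit that adjusted p was 0.0261, and the difference was -1.23 to -0.39 in the 3 experiments.

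Lcn2, whose product lipocalin 2 holds back iron from bacteria, was high in tolerant cells. Levels were 11.02, 10.94 and 12.83 in recovered cells, 13.72, 13.71 and 14.82 in tolerant cells, 11.12, 9.08 and 10.44 in acute cells and 11.02, 8.94 and 8.97 in untreated cells. All 3 tolerant arrays lay above the other 9, and the other groups overlapped, with 1 untreated array (experiment 1) as high as the acute and recovered arrays of that experiment. Lcn2 was higher in tolerant than in untreated cells by 4.44 ± 0.71 (21.7-fold, adjusted p = 0.00107) and higher than in acute cells by 3.87 ± 0.71 (14.6-fold, adjusted p = 0.00285). By size of rise over acute cells it ranked 19 of 20491 genes. In recovered cells it fell back by 2.49 on the log2 scale relative to tolerant cells (SE 0.71, adjusted p = 0.0298).

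Acute minus untreated was 0.57 ± 0.71 for Lcn2, with a 95% interval of -0.98 to 2.12 (adjusted p = 0.635), so a first exposure gave no called change, and a moderate rise or fall is within that interval. Recovered minus acute was 1.38 ± 0.71 (adjusted p = 0.425), and recovered minus untreated was 1.95 ± 0.71 (adjusted p = 0.0517). The last was called in 7 of 21 alternatives, among them experiment number as a block (adjusted p = 0.0231) and the fit without untreated array 1 (2.64, adjusted p = 0.0141). It was 1.33 without recovered array 3 (adjusted p = 0.191), 1.60 without untreated array 2 (adjusted p = 0.163), 1.61 without untreated array 3 (adjusted p = 0.139) and 1.00 on the first scan day alone (adjusted p = 0.354). Within experiments 1, 2 and 3 recovered minus untreated was -0.0035, 2.00 and 3.85, so no rise was seen in experiment 1. The recovered and untreated arrays of experiment 1 lay on different slides. On slides 2 and 3, which held both groups, the difference was 2.04 and 3.85. The fall in recovered against tolerant cells lost its call without any 1 of 5 arrays, namely tolerant 1, 2 or 3 and recovered 1 or 2 (adjusted p up to 0.104), while the change itself stayed between -2.68 and -2.12 in those 5 fits. It was also lost on the first scan day alone (adjusted p = 0.0528), with no filter on dim probes (adjusted p = 0.0626) and with the authors' values (-2.38, adjusted p = 0.499).

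Slpi, which encodes an inhibitor of neutrophil elastase and cathepsin G, rose in every LPS group. Levels were 12.76, 12.63 and 11.91 in recovered cells, 13.05, 14.10 and 13.80 in tolerant cells, 11.98, 12.03 and 11.61 in acute cells and 9.63, 10.13 and 10.07 in untreated cells. Tolerant arrays lay above all others and untreated arrays below all others, and only the recovered and acute arrays overlapped. Against untreated cells the rise was 2.49 ± 0.30 in recovered (5.61-fold, adjusted p = 6.02e-05), 3.70 ± 0.30 in tolerant (13.0-fold, adjusted p = 7.32e-06) and 1.93 ± 0.30 in acute cells (3.82-fold, adjusted p = 0.000454). Slpi was higher in tolerant than in acute cells by 1.77 ± 0.30 (adjusted p = 0.00167) and lower in recovered than in tolerant cells, with a change of -1.22 ± 0.30 (adjusted p = 0.0151). Recovered minus acute was 0.56 ± 0.30 (adjusted p = 0.446). The call between recovered and tolerant cells was lost without tolerant array 2 (-0.99, adjusted p = 0.0603), without recovered array 3 (-0.96, adjusted p = 0.0569) and on the first scan day alone (-0.88, adjusted p = 0.106).

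Camp encodes the cathelicidin precursor, which neutrophil granules hold in large amounts. Its levels were 7.54, 7.74 and 7.16 in recovered cells, 7.80, 8.26 and 8.16 in tolerant cells, 6.19, 6.72 and 7.13 in acute cells and 5.45, 5.91 and 6.10 in untreated cells. No 2 groups overlapped, although the highest acute and lowest recovered array lay close, and the order was the one seen for Saa3 and Slpi. Camp rose against untreated cells by 1.66 ± 0.26 in recovered (adjusted p = 0.000502), 2.25 ± 0.26 in tolerant (4.76-fold, adjusted p = 0.000133) and 0.86 ± 0.26 in acute cells (1.81-fold, adjusted p = 0.0294). It was higher in tolerant than in acute cells by 1.39 ± 0.26 (adjusted p = 0.0035). Recovered minus acute was 0.80 ± 0.26 (adjusted p = 0.176) and recovered minus tolerant -0.59 ± 0.26 (adjusted p = 0.131), and with experiment number as a block these adjusted p-values were 0.0439 and 0.0468. Recovered minus tolerant was also called with the slide as a block (-0.79, adjusted p = 0.0083) and with the authors' values (-0.63, adjusted p = 0.0277).

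The rise of Camp in acute cells was lost without untreated array 1 or 2 or acute array 2 or 3 (changes of 0.64 to 0.90, adjusted p up to 0.112), on the first scan day alone (adjusted p = 0.0648) and with no filter on dim probes (adjusted p = 0.0567). After normexp background correction the rise was smaller but still called, at 0.52 in acute (adjusted p = 0.0379) and 1.06 in recovered cells (adjusted p = 0.000432). A second Camp probe, which overlaps the first on the genome, gave 0.60 ± 0.22 for acute minus untreated (adjusted p = 0.0609), 1.73 ± 0.22 for tolerant minus untreated (adjusted p = 0.00023) and 1.32 ± 0.22 for recovered minus untreated (adjusted p = 0.000655). It also called tolerant above acute, by 1.13 ± 0.22 (adjusted p = 0.00399).

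Hp encodes haptoglobin, which binds free haemoglobin. Levels were 9.53, 9.91 and 11.32 in recovered cells, 10.70, 11.80 and 12.95 in tolerant cells, 10.18, 9.98 and 11.00 in acute cells and 9.09, 10.54 and 11.33 in untreated cells. In every group the array of experiment 3 was the highest, the groups overlapped, and the standard error was accordingly wide. No comparison passed in the main fit, which has no block: tolerant cells differed by 1.50 ± 0.68 from untreated (adjusted p = 0.157) and by 1.43 ± 0.68 from acute cells (adjusted p = 0.156), and recovered from tolerant cells by -1.56 ± 0.68 (adjusted p = 0.123). Within experiments the tolerant array exceeded the untreated array by 1.26 to 1.62 in 3 of 3, and recovered minus tolerant was -1.89 to -1.17 in 3 of 3.

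With experiment number as a block the standard error for Hp was 0.29. Tolerant cells were then called higher than untreated (adjusted p = 0.00331) and acute cells (adjusted p = 0.00382), and recovered cells lower than tolerant cells (adjusted p = 0.00276). A block for the array slide called the same 3, with adjusted p of 0.00466, 0.00514 and 0.00279. The authors' values, fitted without a block, called them too, with adjusted p of 0.0158, 0.00889 and 0.0109. Acute minus untreated was 0.07 ± 0.68 (adjusted p = 0.963), recovered minus untreated -0.06 ± 0.68 (adjusted p = 0.952) and recovered minus acute -0.13 ± 0.68 (adjusted p = 0.955). Each of these 3 changed sign within experiments, with 1 of 3 experiments positive.

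**Figure D2:**
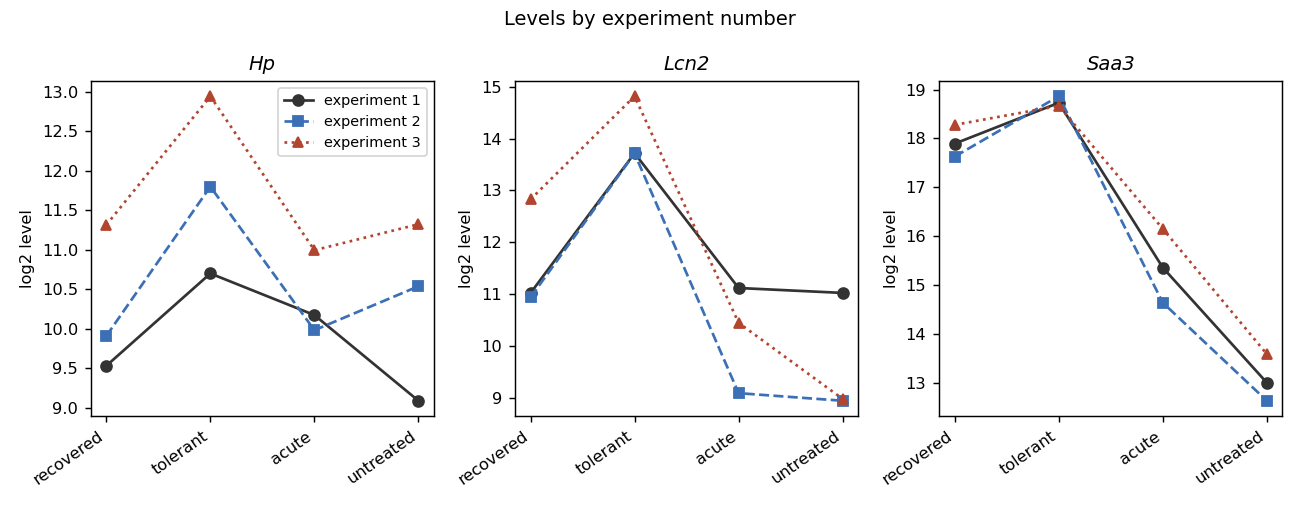
Log2 levels of Hp, Lcn2 and Saa3 in the 4 groups, with the arrays of each experiment number joined by a line. The 3 Hp lines lie apart in level, experiment 3 uppermost, and each has its peak in tolerant cells, whereas the Lcn2 line of experiment 1 differs from the others in untreated cells.

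Lyz2 encodes the lysozyme of macrophages and was strongly expressed throughout. Levels were 17.10, 17.15 and 17.12 in recovered cells, 16.24, 16.61 and 16.80 in tolerant cells, 16.74, 16.93 and 17.00 in acute cells and 16.59, 16.83 and 17.15 in untreated cells. The whole range over 12 arrays was under 1 log2 unit, and untreated arrays spanned most of it. Acute minus untreated was 0.04 ± 0.18, with a 95% interval of -0.37 to 0.44 (adjusted p = 0.925). Tolerant minus untreated was -0.31 ± 0.18 (adjusted p = 0.295), with -0.35 to -0.22 in the 3 experiments, and it was called with the slide as a block (adjusted p = 0.0366) but not with experiment number as one. Recovered minus untreated was 0.27 ± 0.18 (adjusted p = 0.292) and recovered minus acute 0.23 ± 0.18 (adjusted p = 0.643).

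Recovered cells were called above tolerant cells for Lyz2, by 0.57 ± 0.18 (1.49-fold, adjusted p = 0.0472), and their arrays did not overlap. This call was lost in 13 of 21 alternative analyses, among them quantile normalization (0.30, adjusted p = 0.397) and the removal of any 1 recovered, tolerant 1 or 2, acute, or untreated 2 array. Tolerant minus acute was -0.34 ± 0.18 (adjusted p = 0.206), and with experiment number or slide as a block it was called (adjusted p = 0.0445 and 0.0203).

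Ptx3, whose product is the long pentraxin that macrophages secrete, had its lowest level among the LPS groups in tolerant cells. Its levels were 8.79, 8.16 and 8.91 in recovered cells, 7.45, 6.83 and 6.86 in tolerant cells and 9.37, 8.35 and 7.52 in acute cells. In untreated cells the readings were 1.88, 2.34 and 1.80, not well above background on any array, so only a lower bound of the rise can be given. The bound sets the mean of the brighter group against the lowest level that was well above background on each untreated array. Ptx3 was at least 27.1-fold higher in recovered (adjusted p = 3.17e-07), at least 9.09-fold higher in tolerant (adjusted p = 6.8e-06) and at least 23.4-fold higher in acute cells (adjusted p = 4.34e-07) than in untreated cells. These bounds hold on the scale of the processed intensity: after normexp background correction with an offset of 50, which compresses dim readings, the limma changes against untreated cells were 2.90 in recovered (adjusted p = 2.72e-05), 1.62 in tolerant (adjusted p = 0.00401) and 2.72 in acute cells (adjusted p = 5.05e-05).

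Tolerant arrays lay below all recovered and all acute arrays for Ptx3, and recovered and acute arrays overlapped. Tolerant minus acute was -1.36 ± 0.40 (adjusted p = 0.0307), and recovered minus tolerant was 1.57 ± 0.40 (adjusted p = 0.0181). Recovered minus acute was 0.21 ± 0.40, with a 95% interval of -0.67 to 1.09 (adjusted p = 0.862). The call of tolerant against acute cells was lost without acute array 1 (-0.88, adjusted p = 0.0869), acute array 2 (adjusted p = 0.0727), tolerant array 2 (adjusted p = 0.0967) or tolerant array 3 (adjusted p = 0.0851), and with no filter on dim probes (adjusted p = 0.0628). That of recovered against tolerant cells was lost without tolerant array 2 or 3 or recovered array 1 or 3 (changes of 1.43 to 1.49, adjusted p up to 0.0644) and on the first scan day alone (adjusted p = 0.0582). With the authors' values neither was called (adjusted p = 0.191 for tolerant against acute and 0.108 for recovered against tolerant cells).

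**Figure D3:**
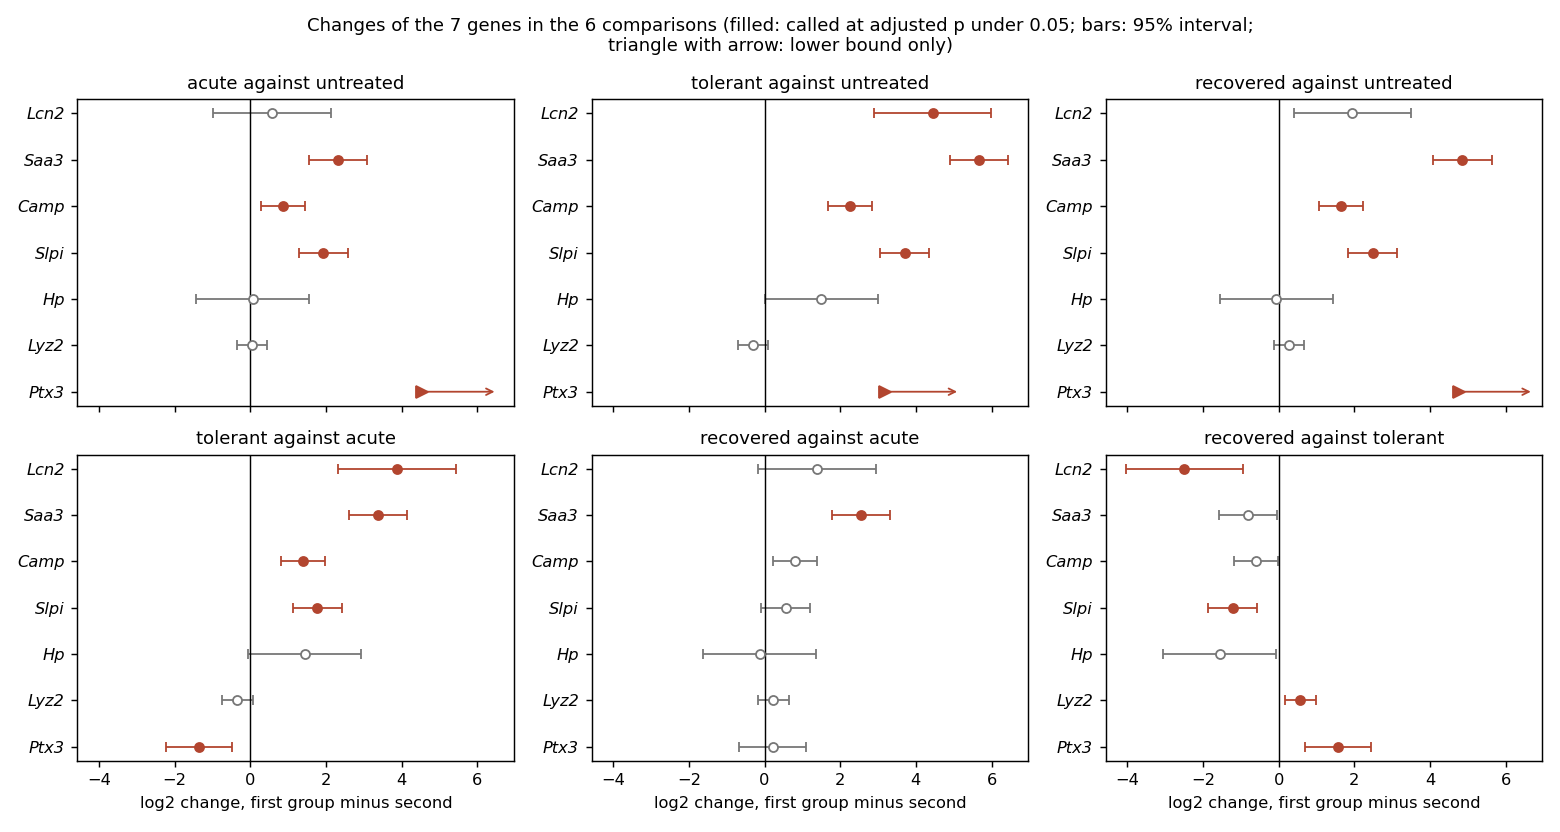
Log2 change of the 7 genes in the 6 comparisons, first group minus second, with 95% intervals. Filled points were called at an adjusted p under 0.05, and a triangle with an arrow is a lower bound, since Ptx3 was not well above background in untreated cells. Tolerant cells exceed acute cells for Lcn2, Saa3, Camp and Slpi and lie below them for Ptx3.

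Counted over the 7 genes, 4 were called higher in acute than in untreated cells (Saa3, Camp, Slpi and Ptx3) and 0 lower, against 14.3% of all genes called higher and 15% lower (29.3% in either direction). In tolerant against untreated cells 5 were higher (the same 4 and Lcn2) and 0 lower, against 11.3% and 8.63% of all genes (19.9% in either direction). In recovered against untreated cells 4 were higher (Saa3, Camp, Slpi and Ptx3) and 0 lower, against 18.5% and 16.9% (35.4%). The arrays of both groups did not overlap for 4, 5 and 4 of the 7 genes in these comparisons, against 38.7%, 34.5% and 47.7% of all genes. The 3 comparisons share the untreated arrays.

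Between LPS groups, tolerant cells had 4 genes called higher than acute cells (Lcn2, Saa3, Camp and Slpi) and 1 lower (Ptx3), against 12% and 10.6% of all genes (22.6% in either direction), and 5 did not overlap (38.5% of all genes). Recovered cells had 1 called higher than acute cells (Saa3) and 0 lower, against 1.46% and 0.581% (2.04%), and Saa3, Camp and Lyz2 did not overlap (19.7% of all genes). Recovered cells had 2 called higher than tolerant cells (Lyz2 and Ptx3) and 2 lower (Lcn2 and Slpi), against 11% and 9.57% (20.5%), and 6 did not overlap (44% of all genes). With experiment number as a block the number called was 2 in recovered against acute and 7 in recovered against tolerant cells, where 2202 (10.7%) and 9233 (45.1%) of all genes were called, against 419 and 4210 without it. All 23 called changes had the same sign in all 3 experiments and on every slide that held both groups. That follows from the arrays of both groups not overlapping in any of the 23, so it adds no support.

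Across the 12 arrays, Pearson correlations between members were highest for Saa3 with Camp (0.94), Camp with Slpi (0.94) and Saa3 with Slpi (0.91). Lcn2 correlated with Saa3 at 0.82, Ptx3 with Slpi at 0.72 and with Lcn2 at 0.38, and Lyz2 with Lcn2 at -0.47. These are descriptions, since the arrays fall into 4 groups and share slides and experiments. Of all other genes tested, Saa1 was the most like Saa3 (r = 0.998), followed by Gm9895 (0.98) and H2-Q8 (0.97). Saa1 is a close paralog of Saa3, and how far their probes bind each other's RNA was not tested. Lcn2 was nearest to Tmem127 (0.95), Ncf1 (0.94), a subunit of the phagocyte oxidase, and Frg1 (0.94), Camp to Glrx (0.97), Rtn2 (0.96) and Zmynd15 (0.96), Slpi to Tubb6 (0.96), Shisa3 (0.96) and an unnamed locus, and Hp to Mboat7 (0.95), Gstm3 (0.93) and Mpv17 (0.92). The genes nearest to Ptx3 were Gbp3 (0.991), Gm14446 (0.990) and Isg15 (0.989), of which Gbp3 and Isg15 are known to be induced by interferon. Lyz2 was nearest to Atf7 (0.97) and 2 unnamed loci.

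Other genes of the same pathways were read from 4 lists. Of 25 further acute-phase plasma proteins all were on the array and 15 were tested. In recovered, tolerant and acute cells against untreated cells 8, 8 and 8 were called higher and 0 lower, with median changes of 1.48, 1.62 and 0.81. That is 53.3% of the 15 in each comparison, against 35.4%, 19.9% and 29.3% of all genes called in either direction. Saa1, a second serum amyloid gene whose probe was not tested for binding of Saa3 RNA, had levels of 16.59, 16.31 and 17.04 in recovered, 17.24, 17.50 and 17.37 in tolerant, 13.67, 13.06 and 14.74 in acute and 11.47, 11.50 and 12.24 in untreated cells. It was higher in tolerant than in acute cells by 3.55 ± 0.37 (adjusted p = 0.000121) and higher in recovered than in acute cells by 2.83 ± 0.37 (adjusted p = 0.0101). Saa2 was well above background in tolerant cells only, where it was at least 2.81-fold higher than in acute cells (adjusted p = 0.000114), and it was at least 2.30-fold lower in recovered than in tolerant cells (adjusted p = 0.00213). It passed the filter on dim probes through tolerant cells alone, so these 2 calls are a description. Both are included in the counts of this list.

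Cfb, complement factor B of the alternative pathway, followed the same order as Saa3, with means of 12.24 in recovered, 13.68 in tolerant, 11.42 in acute and 7.10 in untreated cells. It was higher in tolerant than in acute cells by 2.26 ± 0.30 (adjusted p = 0.000415) and lower in recovered than in tolerant cells, by -1.44 ± 0.30 (adjusted p = 0.00656). Serpina3g, a protease inhibitor, had another order, with means of 11.58, 10.20, 12.70 and 6.23 in recovered, tolerant, acute and untreated cells. It was lower in tolerant than in acute cells, by -2.50 ± 0.31 (adjusted p = 0.000329). Il1rn, the interleukin 1 receptor antagonist, rose in acute cells by 2.87 ± 0.32 (adjusted p = 4.61e-05).

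Of the acute-phase list 4 were higher and 1 lower in tolerant than in acute cells (median 0.20), 2 higher and 0 lower in recovered than in acute cells (median -0.15), and 1 higher and 3 lower in recovered than in tolerant cells (median -0.32). In either direction that is 33.3%, 13.3% and 26.7% of the 15, against 22.6%, 2.04% and 20.5% of all genes. The second gene called higher in recovered than in acute cells was C3, the central complement component, by 0.99 ± 0.21 (adjusted p = 0.0423), a call lost in 13 of 21 alternatives, the removal of any 1 recovered array among them. Orm1, an acute-phase lipocalin, was lower in recovered than in tolerant cells, by -1.24 ± 0.37 (adjusted p = 0.0357). It lost that call without tolerant array 2 or 3 or recovered array 1 or 3. With experiment number as a block 5 of the 15 were lower in recovered than in tolerant cells, against 19.8% of all genes.

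Of 25 other granule and secreted antimicrobial genes 23 were on the array and 10 were tested. The counts called higher were 6 in recovered, 5 in tolerant and 2 in acute against untreated cells, with 0 lower and medians of 0.68, 0.73 and 0.41. So 60%, 50% and 20% of the 10 were called, against 35.4%, 19.9% and 29.3% of all genes in either direction. The share in acute cells was thus below that over all genes. The block raised the count in acute cells to 5, against 21.2% of all genes. S100a8, a subunit of calprotectin, had levels of 9.83, 9.92 and 9.59 in recovered, 10.08, 11.42 and 11.17 in tolerant, 8.86, 9.20 and 9.16 in acute and 7.71, 8.56 and 8.59 in untreated cells. It was highest in tolerant cells, by 1.82 ± 0.33 over acute cells (adjusted p = 0.00292), and its partner S100a9 was not above background on any array. In recovered against tolerant cells its change was -1.11 ± 0.33 (adjusted p = 0.0375), a call lost without any 1 recovered array, tolerant array 2 or 3, or acute array 2.

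Nos2, the inducible nitric oxide synthase, was lower in tolerant than in acute cells, by -1.41 ± 0.33 (adjusted p = 0.0107), and higher in recovered than in tolerant cells, by 1.60 ± 0.33 (adjusted p = 0.00683). Against untreated cells it rose by 4.86 ± 0.33 in recovered, 3.26 ± 0.33 in tolerant and 4.67 ± 0.33 in acute cells. Rnase4, a secreted ribonuclease, was higher in tolerant than in acute cells by 1.05 ± 0.24 (adjusted p = 0.00883). Chi3l3, a chitinase-like protein, was at least 3.39-fold higher in recovered (adjusted p = 0.00708) and at least 2.70-fold higher in tolerant cells (adjusted p = 0.0327), both against untreated cells. The tolerant call was lost without untreated array 1 or 3 or tolerant array 1 or 3. Mpeg1, a pore-forming protein of macrophages, was higher in acute than in untreated cells by 0.38 ± 0.12 (adjusted p = 0.0371), a call lost in 13 of 21 alternatives. The list had 2 higher and 1 lower in tolerant against acute cells (median 0.17), 0 and 0 in recovered against acute cells (median 0.19), and 1 and 1 in recovered against tolerant cells (median 0.26). Called in either direction were 30%, 0% and 20% of the 10 tested, against 22.6%, 2.04% and 20.5% of all genes. With the block the counts in recovered against tolerant cells were 3 and 2, against 25.2% and 19.8% of all genes.

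Of 22 genes for receptors and binding partners of the 7 proteins 20 were tested, and 9, 6 and 5 were higher and 1, 3 and 1 lower in recovered, tolerant and acute against untreated cells (medians 0.55, 0.10 and 0.11). Called in either direction were 50%, 45% and 30% of the 20, against 35.4%, 19.9% and 29.3% of all genes, so the count in acute cells was at the share over all genes. Fpr2, a receptor for serum amyloid A and cathelicidin peptides, rose by 2.36 ± 0.18 in recovered, 1.63 ± 0.18 in tolerant and 2.07 ± 0.18 in acute cells. Tlr2, a receptor for bacterial lipoproteins, rose by 2.42 ± 0.16, 2.05 ± 0.16 and 1.98 ± 0.16 in the same groups. Fpr1, a receptor for formylated peptides, rose by 1.31 ± 0.23 in recovered and 1.16 ± 0.23 in tolerant cells. P2rx7, an ATP-gated channel, was lower in acute than in untreated cells, by -1.50 ± 0.17 (adjusted p = 5.5e-05), a call lost when the median over its probes was used.

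Tnfaip6 encodes TSG-6, which binds pentraxin 3 in the extracellular matrix. It was well above background in recovered cells (7.23, 6.51 and 4.91) and acute cells (8.60, 8.83 and 6.11), but not in tolerant cells (2.23, 3.80 and 2.07) or untreated cells (1.70, 1.95 and 1.59). It was at least 11.9-fold lower in tolerant than in acute cells (adjusted p = 0.000825) and at least 3.86-fold higher in recovered than in tolerant cells (adjusted p = 0.00827).

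Tlr4, the LPS receptor, was lower in tolerant than in acute cells, by -1.04 ± 0.27 (adjusted p = 0.0164), a call lost without acute array 1 or 2 or tolerant array 3. C1qa, a chain of the complement component that pentraxins bind, was higher by 0.96 ± 0.17 in tolerant (adjusted p = 0.0027) and by 0.91 ± 0.17 in recovered cells (adjusted p = 0.0328) than in acute cells. The recovered call was lost without any 1 recovered array, acute array 1 or 2, or untreated array 2, and that of C1qb (0.68 ± 0.15, adjusted p = 0.046) in 11 of 21 alternatives. Plscr4, a phospholipid scramblase, was higher in recovered than in tolerant cells by 1.16 ± 0.25 (adjusted p = 0.00912). The list's counts were 1 higher and 4 lower in tolerant against acute cells (median -0.08), 2 and 0 in recovered against acute cells (median 0.21), and 4 and 0 in recovered against tolerant cells (median 0.33). In either direction that is 25%, 10% and 20% of the 20, against 22.6%, 2.04% and 20.5% of all genes. The first and last shares were thus near those over all genes. With the block the counts of higher genes were 4, 6 and 9 of 20, against 21.6%, 5.99% and 25.2% of all genes.

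Of 20 transcription factors and cytokines known to induce the 7 genes 19 were on the array and 17 were tested, with 11, 9 and 11 higher and 1, 1 and 1 lower in recovered, tolerant and acute against untreated cells (medians 1.43, 0.84 and 1.56). These are 70.6%, 58.8% and 70.6% in either direction, against 35.4%, 19.9% and 29.3% of all genes. Il6, the main inducer of acute-phase genes in the liver, had levels of 16.99, 16.01 and 15.89 in recovered, 14.60, 14.29 and 12.97 in tolerant, 16.66, 16.20 and 15.81 in acute and 7.85, 5.75 and 5.24 in untreated cells. It was lower in tolerant than in acute cells, by -2.27 ± 0.63 (adjusted p = 0.0242), a call lost without acute array 1 or 2 or tolerant array 3. It was higher in recovered than in tolerant cells, by 2.34 ± 0.63 (adjusted p = 0.0237), a call lost without tolerant array 3 or recovered array 1. Tnf was lower in tolerant than in acute cells, by -2.03 ± 0.23 (adjusted p = 0.000189), and higher in recovered than in tolerant cells, by 2.08 ± 0.23 (adjusted p = 0.000249). Il1b rose against untreated cells by 7.97 ± 0.39 in recovered, 7.98 ± 0.39 in tolerant and 6.32 ± 0.39 in acute cells.

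Il10, an anti-inflammatory cytokine, was lower in tolerant than in acute cells, by -2.24 ± 0.41 (adjusted p = 0.00285), and Cebpa, a C/EBP factor of myeloid cells, was higher, by 1.93 ± 0.32 (adjusted p = 0.00159). Rel and Nfkb1, which encode NF-kB subunits, were higher in recovered than in tolerant cells by 1.72 ± 0.37 (adjusted p = 0.00817) and 1.24 ± 0.14 (adjusted p = 0.000301). Rel also rose against untreated cells by 3.31 ± 0.37 in recovered and 3.45 ± 0.37 in acute cells. Csf3, the granulocyte growth factor, was at least 2.32-fold higher in tolerant cells than in untreated ones (adjusted p = 0.0275), a call lost without any 1 tolerant array or untreated array 1 or 2. The list had 3 higher and 7 lower in tolerant against acute cells (median -0.40), 0 and 0 in recovered against acute cells (median 0.18) and 6 and 2 in recovered against tolerant cells (median 0.59). In either direction that is 58.8%, 0% and 47.1% of the 17 tested, against 22.6%, 2.04% and 20.5% of all genes. The block gave 2 higher and 1 lower in recovered against acute cells, against 5.99% and 4.75% of all genes.

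**Figure D4:**
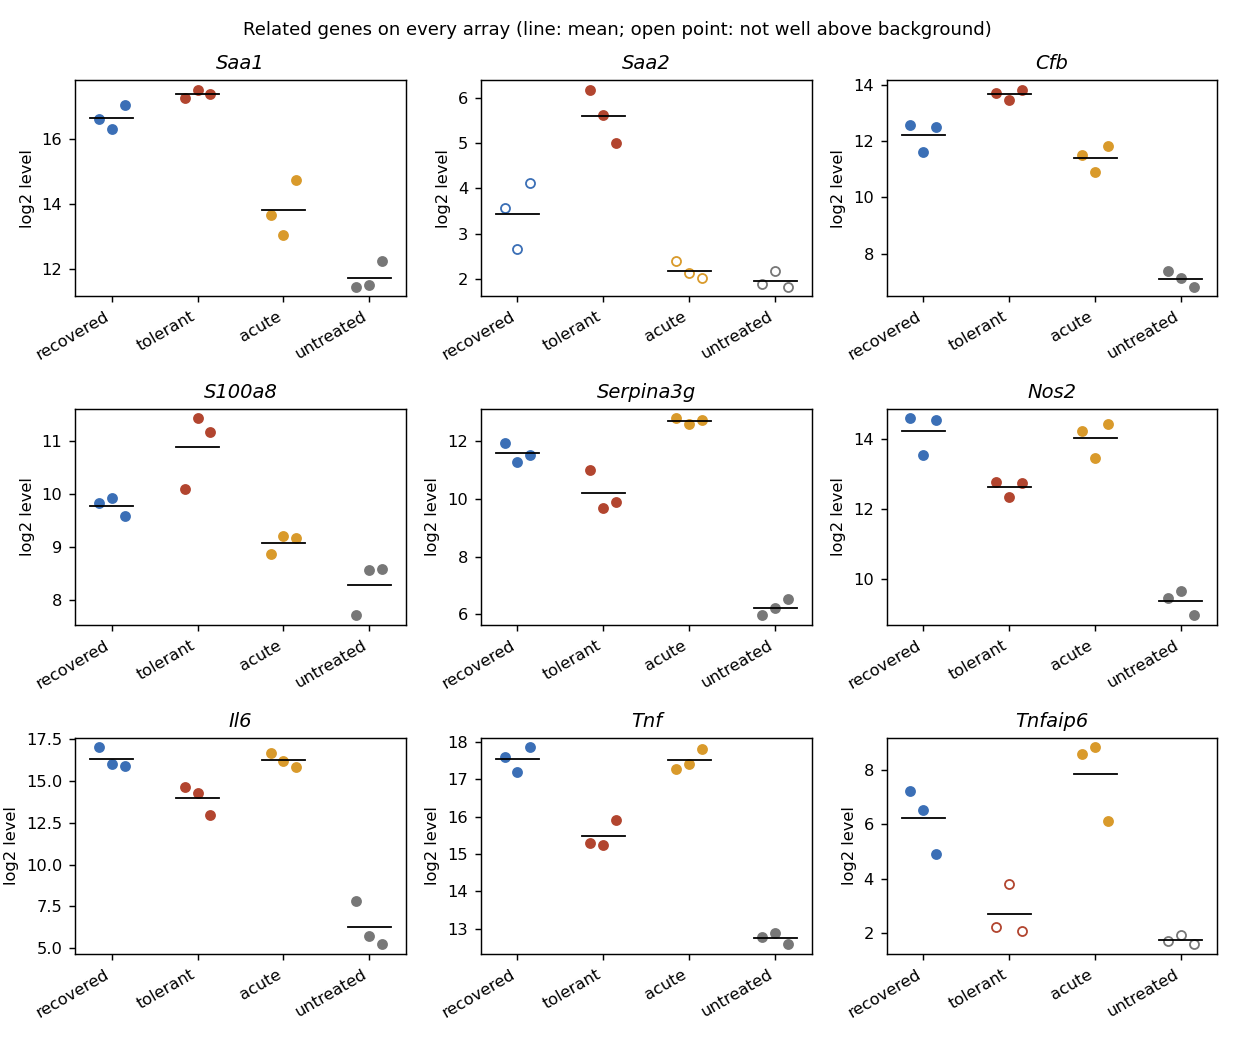
Log2 levels on every array of 9 related genes, by group, with the group mean as a line and open points where the probe was not well above background. Saa1, Saa2, Cfb and S100a8 have their highest mean in tolerant cells, and Serpina3g, Nos2, Il6, Tnf and Tnfaip6 are lower in tolerant than in recovered and acute cells.

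The authors' own processed values gave another picture for some genes, and not only on arrays of experiment 3. For Saa3 they were 15.60 and 15.94 on untreated arrays 1 and 2, where the levels used here were 13.00 and 12.64. On acute arrays 1 and 2 they were 16.10 and 15.93, against 15.36 and 14.64 here. For Lcn2 they were 11.90 and 11.13 on untreated arrays 1 and 2, against 11.02 and 8.94 here. In the authors' deposited table, which holds log2 values of the same arrays, Lcn2, Saa3 and Ptx3 were all listed at 2.58 on untreated array 3, the lowest value of that array, and Lcn2 at 1.88 on acute array 3, likewise its lowest. On untreated array 3 a total of 455 spots shared the lowest value, and 252 of these were well above background in the scanner file. On acute array 3 it was 178 spots, 35 of them well above background, and on tolerant and recovered array 3 it was 113 and 121. On each array of experiments 1 and 2 the lowest value was held by 1 spot. The scanner files flagged neither Lcn2 nor Saa3 there, both well above background, and the cause was not tested. With the authors' values the standard error of Lcn2 and Saa3 was accordingly wide, and 7 of their calls were lost with the direction of the mean change kept. For Lcn2 these were tolerant against untreated (5.74, adjusted p = 0.114), tolerant against acute (6.01, adjusted p = 0.093) and recovered against tolerant cells, given above. For Saa3 they were acute against untreated (4.19, adjusted p = 0.22), recovered against untreated (6.43, adjusted p = 0.0577), tolerant against acute (3.20, adjusted p = 0.367) and recovered against acute cells (2.24, adjusted p = 0.656), and Saa3 in tolerant against untreated cells kept its call (adjusted p = 0.0482). The changes against untreated cells, and those of Lcn2 against acute cells, rest partly on entries at an array's lowest value. In experiments 1 and 2, free of these, Saa3 was 16.10 and 15.93 in acute and 15.60 and 15.94 in untreated cells. It thus did not rise in experiment 2. Lcn2 was 14.17 and 14.08 in tolerant and 11.90 and 11.13 in untreated cells there, a smaller gap than 5.74.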

How the data were processed

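RNA (200 ng per sample) was labelled with Cy3 and hybridised to Agilent arrays, per the labels' protocols. The scanner files give an intensity per spot, from which background was subtracted by Agilent Feature Extraction 10.7.3.1, and list probes by mm9 position, per the file headers. No step between arrays is recorded there. The authors' deposited table of log2 values has the same median (5.34) in every column. The submitters' processing notes name limma without a version, and the other steps are not given in the sources used here. Each column of that table matched its own array best (12 of 12, lowest r 0.973), and it served as an alternative only.

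From the scanner files, log2 processed intensity was taken, each array's 75th percentile (8.04 to 9.38) was subtracted and the mean percentile added back. Control spots and spots with outlier flags (135 to 233 per array, 118 probes lost) were left out, and 0 spots were saturated. Of 55681 probes 28056 passed the filter (well above background on every array of 1 group or more), and 20491 genes remained with the brightest probe for each gene name. Between 47.8% and 55.0% of an array's spots were well above background, and arrays of a group correlated at r of 0.980 to 0.994 across genes. The number of arrays limits the precision. One model of all 4 groups was fitted with limma 3.58.1 in R 4.3.3 (lmFit, eBayes; 8 residual and 3.06 prior degrees of freedom) with two-sided moderated tests, Benjamini-Hochberg adjustment over all genes and a threshold of 0.05. P-values measure the spread between the arrays of a group.

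The 3 slides, scanned on 2 days, held replicate 1 of untreated, acute and tolerant cells, replicate 2 of all groups with recovered replicate 1, and replicate 3 of all groups (second day). The labels describe independent experiments, and deviations from the group means correlated at r of 0.276 to 0.773 in 18 pairs of equal replicate number, against -0.653 to 0.337 in 36 pairs of unequal number. Arrays of equal number also shared a slide, except recovered replicate 1, and only replicate 3 was scanned on the second day. The correlations therefore cannot tell a shared experiment from a shared slide or scan day. Pairing by number is an assumption, and experiment number was used as a block in an alternative fit. Other alternatives were a slide block, the first scan day alone, quantile normalization, normexp background correction (offset 50), the authors' values, no filter on dim probes, an intensity trend in the prior, the median over a gene's probes, and leaving out each array in turn (21 in all). Scripts were tested on simulated data.

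Members and lists were chosen with earlier results of these data known. Besides the members, up to 4 called genes per list and comparison with the largest change qualified for naming, most of which are given (some are not reported here), and per member the 3 genes with the highest correlation. Lists were described by counts and medians without a list test. Promoter sequences and names came from RefSeq (GRCm38.p6). Figures were drawn with matplotlib.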

Additional observations from a re-analysis of the deposited data

How the results depend on the processing

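Each of 42 member changes was recomputed under 21 alternatives (882 values): 787 kept their direction and their side of the threshold, 48 kept their direction and lost the call, 25 gained one, and 22 changed sign. Saa3, Camp, Slpi and Ptx3 in tolerant against untreated cells, Camp, Slpi and Ptx3 in recovered against untreated cells, Slpi and Ptx3 in acute against untreated cells, and Camp and Slpi in tolerant against acute cells kept their calls under all 21. No change that reversed was called in either fit. For acute against untreated cells the reversed values were -0.26 for Lcn2 with the authors' values, -0.27, -0.0021, -0.32, -0.099 and -0.020 for Lyz2 (quantile, normexp, authors' values, without untreated 1, without acute 3; -0.099 to 0.18 over single arrays left out) and -0.018, -0.16, -0.55 and -0.24 for Hp (quantile, authors' values, without untreated 1, without acute 3; -0.55 to 0.57 over single arrays). For recovered against untreated cells they were -0.075 and -0.19 for Lyz2 (quantile, authors' values) and 0.046, 0.44, 0.30 and 0.11 for Hp (without untreated 2 or 3, or recovered 1 or 2; -0.68 to 0.44 over single arrays). For recovered against acute cells they were 0.033, 0.17, 0.23 and 0.040 for Hp (authors' values, without acute 3, recovered 1 or recovered 2; -0.66 to 0.23 over single arrays) and -0.38 and -0.24 for Ptx3 (first scan day, without acute 3; -0.24 to 0.69 over single arrays). Quantile normalization moved the median of all genes to -0.12 in acute and -0.08 in recovered against untreated cells. The replicate block changed no member call other than those given beside the results.

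The number of members called in tolerant against acute cells was 5, and 3 with the authors' values. Under the replicate block Hp and Lyz2 were called as well (adjusted p = 0.00382 and 0.0445), where the count over all genes, given below, also rose. In recovered against acute cells it was 1, with 2 under the replicate block and 0 with the authors' values (where no member passed), and leaving out 1 array gave 1 to 1. In recovered against tolerant cells it was 4, with 7 under the replicate block, 2 on the first scan day and 2 with no filter, and 0 to 4 on leaving out 1 array, the 0 without tolerant 2. Leaving out 1 array gave 3 to 4 in acute, 5 to 5 in tolerant and 4 to 5 in recovered against untreated cells and 4 to 5 in tolerant against acute cells.

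Over all genes, acute against untreated cells had 5995 called, with 9318 under the slide block and 9317 with the authors' values. Tolerant against untreated cells had 4075, with 7688 under the replicate block, 8085 under the slide block and 7100 with the authors' values. Recovered against untreated cells had 7252, and 11156 with the authors' values. Tolerant against acute cells had 4639, with 9116, 9620 and 7681 under the replicate block, the slide block and the authors' values. Recovered against acute cells had 419, with 2202, 1602 and 1203 in the same order and 99 with no filter, and 25 to 447 on leaving out 1 array (25 without acute 2, 48 without recovered 1, 49 without acute 1, 53 without recovered 2, 106 without recovered 3, 174 without untreated 2, 195 without tolerant 2). Recovered against tolerant cells had 4210, with 9233, 8235 and 7406 in that order, and 2580 to 4510 on leaving out 1 array (2580 without recovered 1, 2714 without tolerant 1). Without 1 array the other counts were 5013 to 6012, 2913 to 4317 and 5866 to 7544 in acute, in tolerant and in recovered against untreated cells and 3125 to 4821 in tolerant against acute cells.

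The share of higher calls was 48.8% in acute against untreated cells and 37.3% with the authors' values. It was 56.6% in tolerant against untreated cells (45.5% with quantile normalization, 40.8% with the authors' values) and 52.2% in recovered against untreated cells (39.9% and 38.9%). It was 71.6% in recovered against acute cells (60.7% and 49.8%) and 53.4% in recovered against tolerant cells (42.2% with the authors' values). The causes were not tested. The 3 arrays per group and Ptx3 readings near background in untreated cells limit what can be resolved.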
